A study of Mus musculus with 50 samples.

Results

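Chromatin binding of the glucocorticoid receptor (GR, encoded by Nr3c1) was compared with that of the nuclear factor I protein NFIA in the same cell population, astrocytes of the primary visual cortex (V1) of normally reared (NR) mice at postnatal day 14. Both proteins were profiled by CUT&RUN, a method that cuts out the DNA next to a protein with a nuclease directed there by an antibody. The 6 libraries compared, 3 for GR and 3 for NFIA, were chosen by their labels from 39 libraries with a peak list and 50 samples in all. The labels give wild-type mice for every library, injected at P0-P1 with an AAV2/5 vector whose GfaABC1D promoter, active in astrocytes, drives an inactive recombinase (ΔCre) and an EGFP-KASH protein of the nuclear envelope, with the 4x6T element. GFP-positive nuclei were isolated by flow sorting. Tissue of 3 to 5 mice was pooled for each replicate, with 175000 nuclei as input. The study's methods name C57BL/6 mice for the NR GR libraries and, for astrocyte NFIA, only GR fl/fl mice, so a difference of genotype between the proteins was not tested. GR was captured with a mixture of antibodies and NFIA with a single antibody. A site was a merged region with a peak in at least 2 of the 3 libraries of a protein, which gave 12458 GR sites and 23495 NFIA sites. The comparison asks where the hormone-activated receptor and the astrocyte lineage factor bind relative to each other.

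GR is a steroid receptor that is held in the cytoplasm by chaperones such as Hsp90, enters the nucleus when it binds corticosterone, and contacts DNA as a dimer at the glucocorticoid response element (GRE), an imperfect palindrome. It can also be present at regulatory DNA through other factors or at shorter motifs, and in most tissues it binds largely where chromatin is already open. NFIA is one of 4 nuclear factor I proteins, which bind the palindrome formed by TTGGC and GCCAA or one arm of it. It helps to switch neural progenitors towards the astrocyte fate and remains present in mature astrocytes.

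The DNA at the summits of chosen sites shows the receptor and NFI motifs that were searched for. The windows below reach 50 bp to either side of the summit of a site and are read on the plus strand of mm10 and written in lower case. The first set holds sites with peaks in all 6 libraries and a full GRE (GNACA and TGTNC separated by 3 bases), with the GRE and any NFI half-site (TTGGCA, either strand) in capitals. The Per1 site lies in an intron at chr11:69096763-69097317, the Nrxn2 site in an intron at chr19:6451920-6452548, the Lgi1 site between genes at chr19:38260409-38260689 and the Acot11 site in an intron at chr4:106798792-106799135.
Per1: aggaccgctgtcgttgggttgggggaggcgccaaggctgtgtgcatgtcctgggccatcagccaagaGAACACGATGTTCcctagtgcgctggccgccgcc
Nrxn2: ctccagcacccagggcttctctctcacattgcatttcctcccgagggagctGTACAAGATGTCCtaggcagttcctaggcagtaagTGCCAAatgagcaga
Lgi1: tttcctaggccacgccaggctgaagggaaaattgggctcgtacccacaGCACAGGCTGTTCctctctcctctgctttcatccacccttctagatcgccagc
Acot11: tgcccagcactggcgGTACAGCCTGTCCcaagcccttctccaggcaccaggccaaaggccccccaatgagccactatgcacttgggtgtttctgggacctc

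The second set holds NFIA sites called in 3 of 3 NFIA libraries with no peak in any GR library and with a full NFI site (TTGGC and GCCAA separated by 5 bases), in capitals together with any half-site. The site nearest the start of Cadm1 lies in an intron of the lincRNA gene Gm31816 at chr9:47358081-47358349, the Scml4 site in an intron at chr10:42863513-42863901, the site nearest Slc38a2 between genes at chr15:96676713-96676898 and the site nearest Nptx1 in an intron of the transcript gene Gm11762 at chr11:119551177-119551348. Both sets are among the best-ranked sites of their kind and were chosen after their values were seen. The motif and the presence or absence of GR peaks were required of each set, so the contrast between them follows from the choice. A full GRE was at the summit of 23 of the 1722 regions with peaks in all 6 libraries. A full NFI site was at 49 of the 2198 regions with NFIA peaks in 3 of 3 libraries and no GR peak.
Cadm1: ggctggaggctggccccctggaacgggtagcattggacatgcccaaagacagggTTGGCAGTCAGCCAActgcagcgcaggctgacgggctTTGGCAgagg
Scml4: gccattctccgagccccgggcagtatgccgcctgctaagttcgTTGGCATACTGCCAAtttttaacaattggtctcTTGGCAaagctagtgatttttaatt
Slc38a2: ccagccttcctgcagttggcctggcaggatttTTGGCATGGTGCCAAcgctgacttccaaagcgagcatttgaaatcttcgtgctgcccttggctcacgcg
Nptx1: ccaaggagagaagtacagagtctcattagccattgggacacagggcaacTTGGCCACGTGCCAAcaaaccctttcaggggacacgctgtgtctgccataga

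The third set shows top-ranked sites whose summits carry neither palindrome. The Ntm site at chr9:29949102-29949471 and the intergenic Fbxo2 site at chr4:148166364-148166839 had peaks in all 6 libraries, the intergenic site nearest Tmem47 at chrX:80941989-80942247 had GR peaks only, and the Cmtm4 site at chr8:104388012-104388229 had NFIA peaks only (also chosen after its values were seen). Capitals again mark an NFI half-site.
Ntm: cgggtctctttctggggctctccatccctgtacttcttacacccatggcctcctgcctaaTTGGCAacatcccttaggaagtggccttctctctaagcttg
Fbxo2: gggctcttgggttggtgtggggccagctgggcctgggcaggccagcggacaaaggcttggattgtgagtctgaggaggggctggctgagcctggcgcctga
Tmem47: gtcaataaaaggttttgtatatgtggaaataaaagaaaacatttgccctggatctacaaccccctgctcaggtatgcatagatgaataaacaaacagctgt
Cmtm4: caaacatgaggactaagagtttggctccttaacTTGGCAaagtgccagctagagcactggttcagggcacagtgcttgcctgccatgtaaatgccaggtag

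GR had fewer peaks than NFIA, and its 3 libraries were much less alike. The GR libraries held 14012, 2262 and 21539 peaks and the NFIA libraries 27143, 25441 and 22373, so the groups did not overlap. The means were 12604 ± 9715 and 24986 ± 2417 (SD, n = 3 each), a log2 difference of 1.50 (two-sided exact permutation of libraries, p = 0.1, the smallest this design allows). The difference was 0.520 without GR replicate 2 and 2.15 without GR replicate 3. The background implied by the deposited fold and p of each peak was 0.224, 0.126 and 0.220 fragments per position for GR and 0.245, 0.239 and 0.257 for NFIA, which is the only measure of depth these lists hold. GR replicate 2 was therefore the shallowest library as well as the one with the fewest peaks, and values without it stand beside several of the results.

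With all libraries, peak width and promoter share differed between proteins by less than the spread between libraries. Median peak width was 152, 114 and 163 bp for GR and 152, 157 and 153 bp for NFIA (143 ± 25.7 and 154 ± 2.65 bp, exact permutation p = 0.8), and without GR replicate 2 the NFIA peaks were narrower, by a difference of −3.5 bp. Peaks within 500 bp of an annotated transcription start made up 43.2, 30.2 and 44.6% of the GR lists and 36.0, 39.8 and 41.5% of the NFIA lists (39.3 ± 7.93 and 39.1 ± 2.80%, exact permutation p = 1). Without GR replicate 2 the promoter difference (NFIA minus GR) was −4.76 percentage points, and the remaining GR libraries lay above all NFIA libraries. At the 1722 regions called in all 6 libraries the median summit held 28, 13 and 38 fragments for GR and 45, 40 and 35 for NFIA, so the signal of GR replicate 3 fell within the NFIA range while that of replicate 2 was low.

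**Figure D1:**
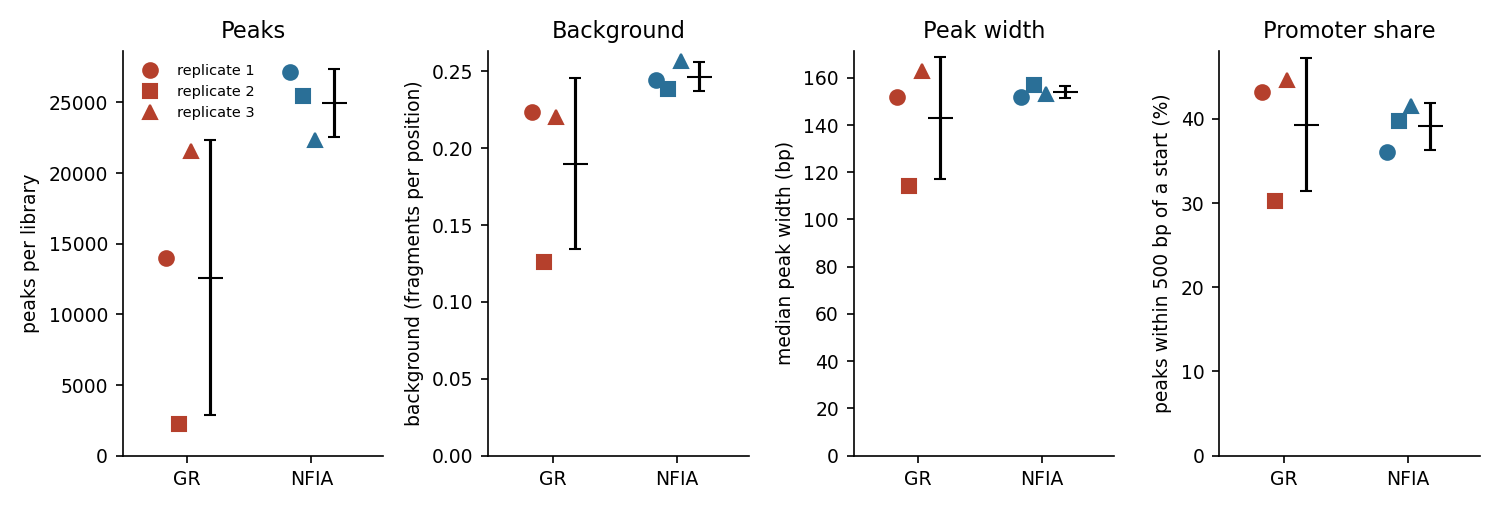
Peaks per library, background in fragments per position, median peak width in bp and share of peaks within 500 bp of a transcription start in %, for GR (red) and NFIA (blue); symbols are libraries and bars are mean ± SD (n = 3). GR replicate 2 (squares), with 2262 peaks and a background of 0.126, lies below every other library in all 4 panels.

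Nearly every GR site was an NFIA site, whereas about as many NFIA sites lacked GR as had it. Of 12458 GR sites 11872, or 95.3% (95% Wilson interval 94.9 to 95.7%), overlapped an NFIA site by at least 1 bp, and 11849 of 23495 NFIA sites, or 50.4% (49.8 to 51.1%), overlapped a GR site. These intervals cover counting error only. At the level of libraries, 90.7, 90.2 and 82.1% of the peaks in the GR lists lay at NFIA sites (87.6 ± 4.84%), and 44.0, 46.6 and 52.1% of the peaks in the NFIA lists lay at GR sites (47.5 ± 4.13%). The overlap moved with the number of peaks compared. When each list was reduced to its 2262 best peaks by fold, 49.9% of GR sites held an NFIA site and 40.5% of NFIA sites a GR site. Peaks of the other astrocyte GR libraries also lay at NFIA sites. The shares were 87 and 59.6% after receptor deletion and 81.7 and 94.1% in GR fl/fl mice given the ΔCre virus. In dark-reared astrocytes they were 65.2, 78.6 and 70%. A high share at NFIA sites was thus also seen in replicate 1 after receptor deletion. The cause of these shares was not tested.

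Among GR sites, 1826 were called in 3 of 3 libraries and 10632 in 2, and 10392 of the latter rested on replicates 1 and 3. Of NFIA sites, 17266 were called in 3 of 3. Without GR replicate 1 or 3 the share of NFIA sites with a GR site was 8.33 or 7.63%, because the shallow library was then needed for every GR site, while the share of GR sites with NFIA was 95.4 and 97.8%. Without GR replicate 2 the shares were 95.8 and 49.7%.

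Stronger sites were shared more often. In 5 equal classes of GR sites ranked by fold within their libraries, from weakest to strongest, 92.6, 92.2, 94.5, 97.8 and 99.4% held an NFIA site. In the corresponding classes of NFIA sites, 34.0, 35.4, 44.4, 60.3 and 78.1% held a GR site. The GR share changed little over its range, and the NFIA share rose by class. Across regions called in both libraries of a pair, Spearman's rho of fold was 0.694 to 0.703 between NFIA libraries, 0.583 between GR replicates 1 and 3, 0.540 to 0.614 between those libraries and NFIA, and 0.375 to 0.404 between GR replicate 2 and any other library. These are descriptions across sites that share depth and base composition.

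GR summits lay close to NFIA summits. The median distance between the summits of overlapping peaks was 27 bp between GR replicates 1 and 3, 26 to 27 bp between GR replicate 1 and the NFIA libraries and 22 to 23 bp between GR replicate 3 and the NFIA libraries. NFIA libraries were 20 to 21 bp apart from each other. GR replicate 2 lay 35 to 39.5 bp from the other GR libraries and 36 to 37 bp from NFIA, so its distance to either protein was larger. Averaged over pairs, the distance was 33.8 bp within GR, 20.7 bp within NFIA and 28.7 bp between proteins.

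The between-protein distance thus exceeded the mean of the within-protein distances by 1.42 bp, the most extreme value among the splits of 6 libraries (exact permutation p = 0.1). Its sign turned without any single NFIA library, to between −2.13 and −1.63 bp. In the 1722 regions of all 6 libraries, a set chosen after seeing the data, the averages were 34.7, 23.7 and 31.9 bp and the excess was 2.72 bp (p = 0.1, exact permutation). Split by position, the excess was 2.94 bp at distal peaks (exact permutation p = 0.1) and 0.278 bp at promoter peaks (exact permutation p = 0.8).

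**Figure D2:**
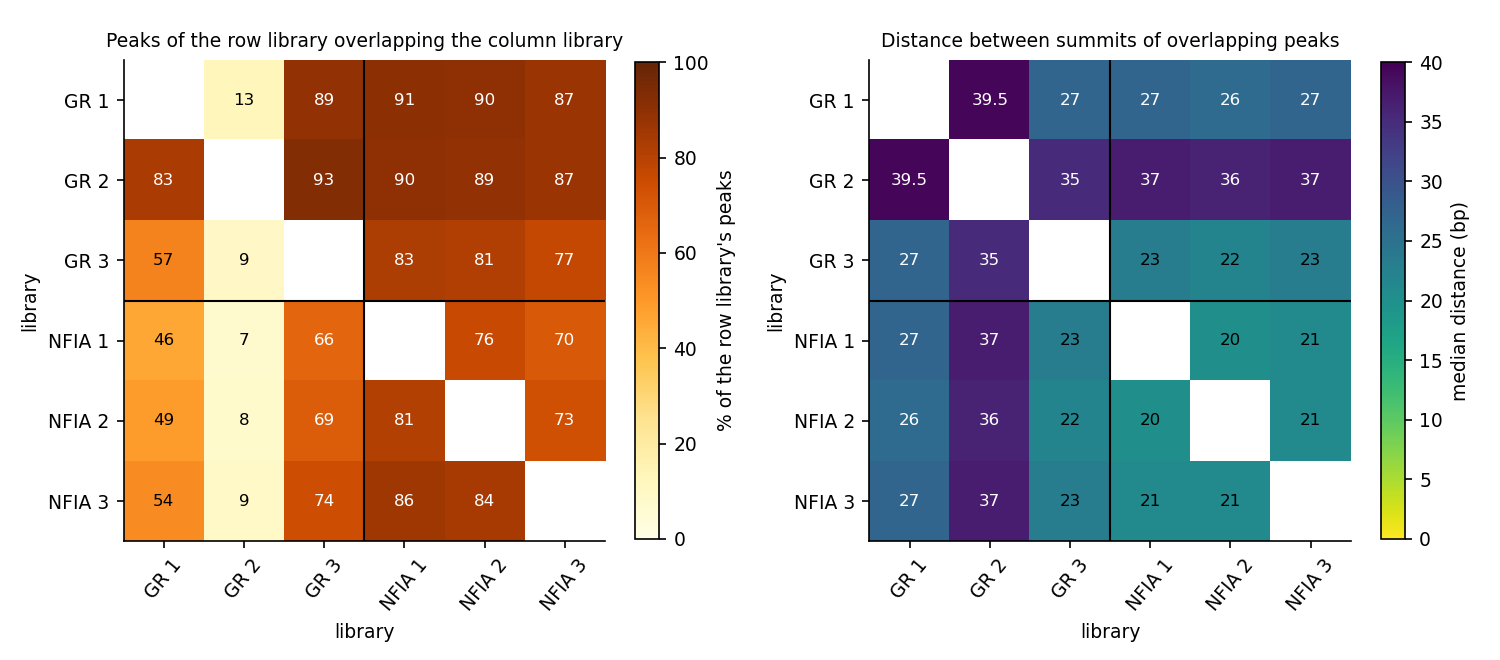
Left, share of the peaks of the row library that overlap a peak of the column library, in %; right, median distance in bp between the summits of overlapping peaks, for the 15 pairs of the 6 libraries (black lines part GR from NFIA). GR replicates 1 and 3 lay 22 to 27 bp from NFIA summits and 27 bp from each other, and GR replicate 2 lay 35 bp or more from every library.

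Within 50 bp of summits, NFI motifs marked NFIA summits more than GR summits, and the full GRE marked GR summits more. The NFI half-site was present in 12.4, 15.3 and 12.1% of GR summit windows and in 18.5, 16.1 and 15.9% of NFIA summit windows, so the groups did not overlap. The means were 13.3 ± 1.77 and 16.9 ± 1.40% (difference 3.55 percentage points, exact permutation p = 0.1, adjusted p = 0.22 over 11 motifs), against 5.06 and 5.17% in windows 1 kb away. Away from promoters the means were 18.2 and 23.5%, and within promoters 5.87 and 6.47%. Both proteins thus had the motif above its flanking level, NFIA more so and mainly at distal peaks. Within 100 bp of summits the half-site was in 20.1, 26.4 and 19.9% of GR and 26.2, 23.7 and 23.6% of NFIA peaks. GR replicate 2 was then above every NFIA library (exact permutation p = 0.4).

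The full NFI site was rare and almost confined to NFIA in these lists. It occurred in 2, 1 and 5 GR peaks, a mean of 0.0272% of GR peaks, and in 94, 83 and 69 NFIA peaks, a mean of 0.327% (exact permutation p = 0.1, adjusted p = 0.22). The full GRE occurred in 94, 21 and 117 GR peaks, or 0.671, 0.928 and 0.543%, and in 0.427, 0.531 and 0.442% of NFIA peaks. Every GR library was above every NFIA library (0.714 ± 0.196 and 0.467 ± 0.0558%, exact permutation p = 0.1, adjusted p = 0.22), and the flanks held it in 0.155 and 0.145%. Without GR replicate 2 the difference between proteins was −0.140 percentage points, against −0.247 with it. Even within 50 bp of GR summits fewer than 1 peak in 100 carried this palindrome. Within 100 bp it was in 1.19, 1.72 and 0.933% of GR and 0.792, 1.00 and 0.773% of NFIA peaks. The groups then overlapped (exact permutation p = 0.2). With equal numbers of best peaks the exact permutation p was 0.5.

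The NFI half-site also lay nearer to the summit in NFIA peaks. Distances were taken in peaks with the motif concerned within 100 bp of the summit, a wider window than that of the main shares above. For the half-site the median was 26.5, 28.5 and 28.5 bp in the NFIA libraries and 37.5, 39.5 and 36.5 bp in the GR libraries. Of such NFIA peaks 42.1, 40.5 and 39.3% had the half-site within 20 bp of the summit, against 31.2, 27.7 and 31.4% of such GR peaks. For the full GRE the distances were 43, 44 and 39 bp in NFIA and 40, 44 and 38 bp in GR peaks, so the 2 proteins overlapped there. These distances were not tested, and the summits of the shallow GR replicate 2 are the least precise.

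**Figure D3:**
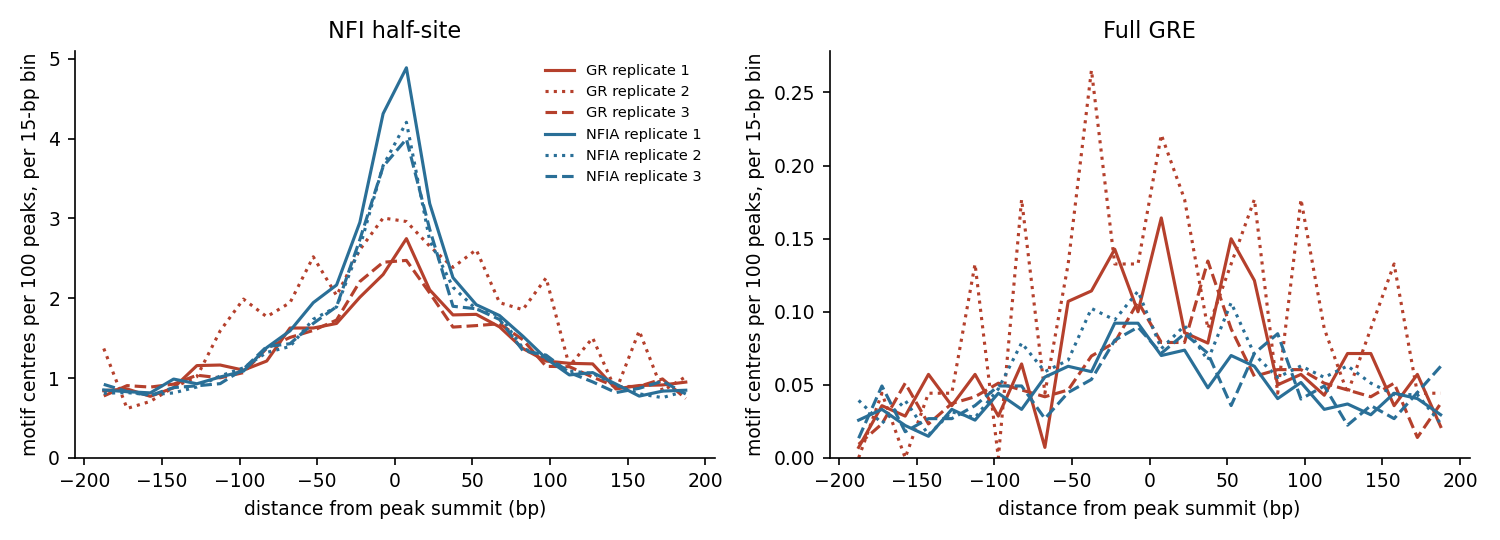
Number of motif centres per 100 peaks in bins of 15 bp around the peak summit (x axis, bp), for the NFI half-site (left) and the full GRE (right); red lines are the 3 GR and blue lines the 3 NFIA libraries. In the bin centred 7.5 bp from the summit the NFI half-site reached 4.89, 4.21 and 4.00 in NFIA and 2.75, 2.96 and 2.47 in GR libraries, while the full GRE curves rest on few peaks and cross.

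Of the other motifs searched on both strands, the E-box CAGCTG was in 8.03% of GR and 8.70% of NFIA windows and the CTCF core in 0.759 and 1.40%, each without overlap between groups (exact permutation p = 0.1, adjusted p = 0.22). The CTCF share was 1.06, 0.177 and 1.04% in the GR libraries. The CTCF difference fell from 0.639 to 0.348 percentage points without GR replicate 2 and was −0.0295 when equal numbers of best peaks were compared. The looser GRE (ACA and TGT separated by 3 bases, which every full GRE contains) and the LHX homeobox motif TAATTA had p = 0.2 by exact permutation. Their differences, −0.727 and −0.826 percentage points, were −0.123 and −0.122 without GR replicate 2. AP-1, CREB, ETS and SP/KLF motifs had exact permutation p between 0.8 and 0.9.

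Whether an NFIA site also held GR varied with the motif at its summit. Of the 85 NFIA sites with a full NFI site, 4 (4.71%) held a GR site and 76 (89.4%) had no peak in any GR library, against 50.4 and 22.3% of all NFIA sites. The median fold rank of these 85 sites within NFIA was 73.1 percent, and 6 of them were at promoters. Among the 79 distal ones 4 held a GR site and 70 had no GR peak. Of the 4005 NFIA sites with a half-site, 1661 (41.5%) held GR and 34.8% had no GR peak.

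NFIA sites with a full GRE were on the other side of the average. Of 106 such sites 68 (64.2%) held a GR site and 13.2% had no GR peak. For NFIA sites with an SP/KLF motif, common at promoters with high GC content, the shares were 57.9 and 9.94%, and for the ETS motif 56.3 and 13.1%. For sites with the core of CTCF, an insulator protein, they were 27.4 and 43.5%. Promoters held 4133 of the 4921 SP/KLF sites and 896 of the 1015 ETS sites. At promoters 59.2% of SP/KLF and 57.3% of ETS sites held GR, near the 58.5% of all promoter NFIA sites. Among GR sites, 1 held a full NFI site and 87 a full GRE, of which 82 overlapped an NFIA site.

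**Figure D4:**
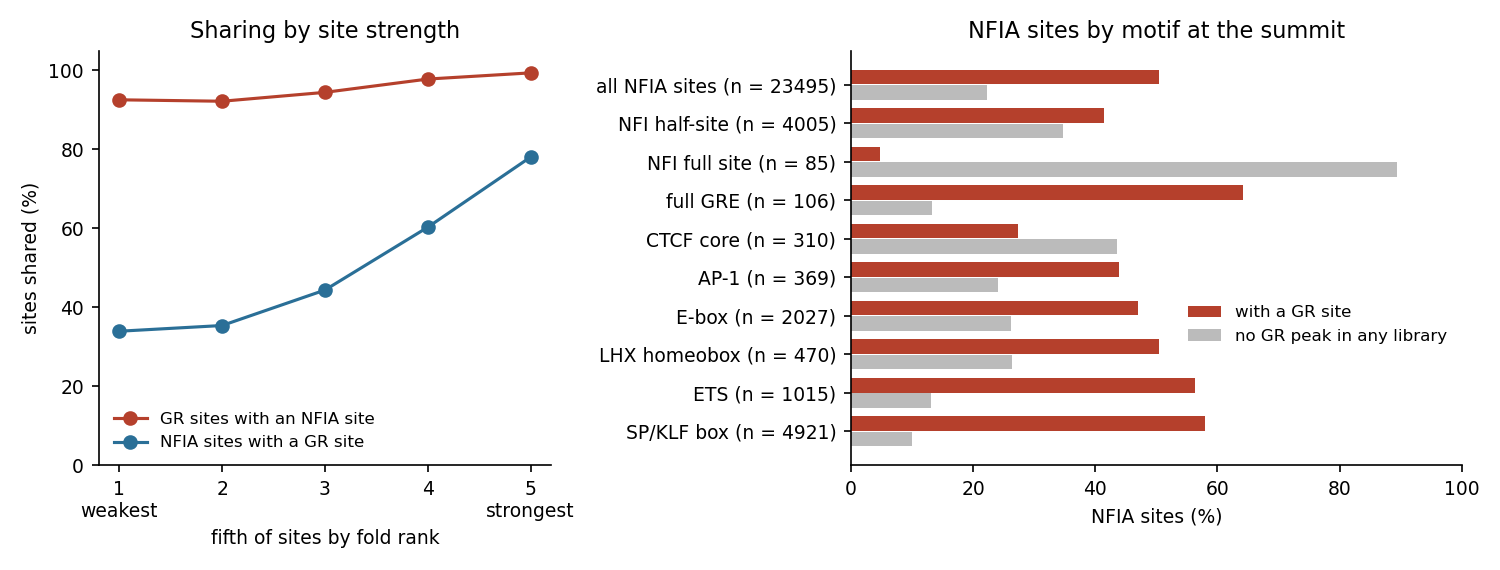
Left, share of sites (%) that overlap a site of the other protein in 5 equal classes by fold rank, for GR sites (red, 92.6 to 99.4%) and NFIA sites (blue, 34.0 to 78.1%). Right, NFIA sites grouped by motif at the summit, with the share that held a GR site (red) and the share with no GR peak in any library (grey) in %; sites with a full NFI site stand apart at 4.71 and 89.4%.

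Sites of both proteins were wider and nearer to transcription starts than sites of either protein alone. The median width was 237 bp for the 11872 shared GR sites, 142 bp for the 586 GR sites without an NFIA site and 160 bp for the 11646 NFIA sites without a GR site. The median fold ranks of these classes within their own protein were 57.8, 42.3 and 42.5 percent. A wide site also meets the overlap rule more easily, and the part of either in the widths was not tested. Promoters held 46.9, 22.0 and 33.8% of these classes, and the median distance to the nearest annotated transcription start was 827.5, 6260.5 and 3346.5 bp. At the 5242 NFIA sites with no GR peak in any library, the promoter share was 19.3% and 26.6% of summits held an NFI half-site, against 12.4% at shared sites. The full GRE was at 82 shared sites (0.691%), at 5 GR sites without an NFIA site (0.853%) and at 38 NFIA sites without a GR site (0.326%). Only 165 GR sites (1.32%) had no peak in any NFIA library. The median distance from NFIA sites without a GR site to the nearest GR site was 28884 bp, and 9.18% of them had one within 1 kb.

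Other GR libraries of the series, which the definition of sites did not use, differed in how often they had a peak in these classes. Astrocytes of GR fl/fl mice given the ΔCre virus (GR-Con, 7761 and 6792 peaks) had a peak at 44.2 and 46.0% of shared sites, at 4.79 and 2.04% of NFIA sites with no NR GR peak and at 31.9 and 13.8% of GR sites without an NFIA site. After receptor deletion with the Cre virus (GR-KO, 1846 and 413 peaks) a peak remained at 11.8 and 1.98% of shared sites, at 7.51 and 0.171% of GR sites without an NFIA site and at 0.763 and 0.0382% of NFIA sites with no NR GR peak. Dark-reared astrocytes (69, 28 and 293 peaks) had a peak at 0.379, 0.185 and 1.59% of shared sites. They had one at 6, 4 and 31 of the 586 GR sites without an NFIA site, a larger share in each library but from few sites. At the 165 GR sites with no peak in any NFIA library, the counts were 3, 3 and 21 (1.82, 1.82 and 12.7%). These libraries differ in their numbers of peaks, whose part in the shares was not tested.

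The strongest sites of both proteins lay near genes of varied function. The 10 regions with the best mean fold rank over all 6 libraries were nearest to Ntm, Spaca6, Gm9833, Fbxo2, Sfxn5, Cttnbp2, Camk2g, Atp23, Pabpc6 and Kctd14. At Ntm, which encodes the neural adhesion protein neurotrimin, the fold over background was 24.6, 17.0 and 29.7 for GR and 45, 31.8 and 37.2 for NFIA. At the Spaca6 promoter, chr17:17826862-17827169, it was 15.3, 16.1 and 27.1 for GR and 53.4, 48.0 and 34.0 for NFIA. At the intergenic Kctd14 site, chr7:97446505-97446969, it was 19.4, 9.37 and 24.2 for GR and 64.1, 72.9 and 48.8 for NFIA, the highest mean rank for NFIA of the 10.

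Every NFIA fold was above every GR fold at 6 of the 10 (Ntm, Spaca6, Cttnbp2, Camk2g, Atp23 and Kctd14), but not at Fbxo2, where GR gave 21.7, 15.6 and 34.2 and NFIA 26.5, 32.1 and 21.6. Fold depends on depth, so ranks within a library were used to compare proteins. The highest fold of any peak was 29.5, 45.9 and 43.5 in the GR and 86.9, 82.6 and 64.8 in the NFIA libraries. Folds at single sites, here and below, are therefore not a measure of which protein bound more. Of the 10 regions 3 were at promoters, 2 in introns and 5 between genes, 3 held an NFI half-site and none a full GRE or full NFI site. Both GR-Con libraries had a peak at all 10, and 8 had one in at least 1 GR-KO library, so at most of the strongest shared regions a GR peak was also called after receptor deletion. Of the NFIA libraries of other cell types, at least 1 had a peak at 2 of the 10.

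GR sites without any NFIA peak were few and mostly weakly replicated. Of the 165 such sites 4 were called in 3 of 3 GR libraries, among them those nearest to Tmem47, Cdh2 and Zfp957. At Tmem47, a membrane protein of cell junctions, the GR fold was 6.71, 21 and 8.98. At Cdh2, the gene of N-cadherin, the folds were 3.65, 15.8 and 6.71, and at the Zfp957 site, inside Vwa8 at chr14:79089582-79089771, they were 3.96, 7.28 and 6.08. At all 3 the highest fold was that of the shallow replicate 2.

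The next 6, nearest to Abhd6, Nuak1, Pik3c3, Lgals9, Paqr7 and Coro2b, were all called in replicates 2 and 3 and not in replicate 1. The strongest, at Abhd6, a lipase of the endocannabinoid system, had folds of 45.9 and 17.1. Of these 10 sites, 9 had a peak in at least 1 GR-Con library, 1 in a GR-KO library and 7 in a dark-reared library, and none had an NFIA peak in other cell types. One, the Zfp957 site, held an NFI half-site, and none a full GRE.

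NFIA sites without any GR peak were many and could be strong. There were 2198 regions with a peak in 3 of 3 NFIA libraries and none in GR, and the 10 best-ranked were nearest to Cmtm4, Gulp1, Cadm1, Dpysl3, Tmem72, Scml4, Snd1, Anxa6, Gdpd2 and Gtf2a1. In an intron of Cmtm4 the NFIA fold was 38.6, 41.8 and 38.1. In an intron of Gulp1, an adaptor protein of phagocytosis, at chr1:44553299-44553504, it was 47.6, 28.0 and 41.3. At the Cadm1 and Scml4 sites, whose full NFI sites are printed above, it was 34.0, 35.8 and 30.8 and 36.9, 28.8 and 28.8. All of these lay at or above the 99th percentile of NFIA folds (mean ranks 99.0 to 99.7), and none of the 3 NR GR libraries had a peak there.

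Of the 10, none was at a promoter, 7 were in introns and 3 between genes. An NFI half-site was at 5 summits and a full NFI site at 2. The Gulp1 site had a peak in 1 GR-Con library and the Scml4 site in 1 GR-KO library, and 4 had an NFIA peak in oligodendrocytes or neurons. Over all 2198 regions, 49 held a full NFI site at the summit, among them the sites nearest Slc38a2 (NFIA fold 24.7, 25.6 and 23.7), a neutral amino acid transporter, and Nptx1 (21.2, 25.2 and 16.3), a neuronal pentraxin.

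Within regions called in all 6 libraries, fold ranks did not overlap between proteins at 84 of 1722 regions (4.88%) with GR higher and at 207 (12%) with NFIA higher. These counts were not tested against what unordered ranks would give, so no class of GR-favoured regions is drawn from them. The region nearest Rsl24d1, chr9:73183434-73183779, had GR folds of 9.73, 9.89 and 14.5 and NFIA folds of 3.15, 3.22 and 2.78, mean ranks of 89.7 and 3.5. The others with the largest gaps towards GR were nearest Zeb1, Rwdd2a (inside Me1), Cpe, Tbc1d1 and Prelid3a. In the other direction, an intron of Abat, which encodes the enzyme that degrades GABA, had GR folds of 3.95, 4.68 and 6.85 and NFIA folds of 19.1, 23.5 and 20.7, mean ranks of 28.9 and 96.6. It was joined by Lgals12, Pgbd5, Ppfia3, Hlf and Plxnb1. Promoters held 14.3% of the regions ranked higher for GR, 23.2% of those ranked higher for NFIA and 33.9% of all 1722. These shares were not tested and, like the named regions, only describe the regions so selected.

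The genes near the sites were described with 13 lists. Within 50 kb of the start, 50.4% of 21911 protein-coding genes had a GR site, 65.1% an NFIA site, 50.1% both, 15% an NFIA site alone and 0.324% a GR site alone. With only sites called in 3 of 3 libraries, 10.6% of genes had a GR site and 59.1% an NFIA site. A window can reach a site that belongs to a neighbouring gene, and these shares follow peak numbers.

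Genes of astrocyte identity and maturation had sites of both proteins almost throughout. Of 40 genes 38 had a GR site and 40 an NFIA site, and 25 kept a GR site called in 3 of 3 libraries. Without a GR site were Ednrb, an endothelin receptor, and Slc4a4, a bicarbonate transporter. At Aqp4, which encodes the water channel of endfeet, the best shared site, in an intron, had folds of 17.8, 12.3 and 30.2 for GR and 28.3, 22.1 and 17.4 for NFIA. In an intron of Slc1a3, the glutamate transporter GLAST, at chr15:8706189-8706536, GR gave 10.6, 6.36 and 15.2 and NFIA 48.9, 41.8 and 38.8. Every NFIA fold was above every GR fold at Slc1a3, while the folds of both proteins overlapped at Aqp4. The scale of fold differs between libraries, so this does not rank the proteins at these genes.

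At the promoter of Glul, glutamine synthetase, chr1:153899672-153900249, the folds were 15, 8.39 and 26.2 for GR and 8.21, 24.6 and 7.58 for NFIA. Glul had 3 GR sites and 1 NFIA site. Slc1a2, the transporter GLT-1, had 9 GR and 11 NFIA sites, Aldoc 5 and 9, Gjb6 5 and 5, and Etnppl 1 and 1. Among the best-ranked of this list were also Fgfr3 (13 and 13 sites), Ntsr2 (6 and 6) and Plpp3 (7 and 5).

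The canonical glucocorticoid targets also carried NFIA. Of 30 genes 25 had a GR site, 12 of them a site in 3 of 3 libraries, and 28 an NFIA site. A GR site was no more frequent than at housekeeping genes, 83.3 against 95% within 50 kb and 70% of each list within 10 kb. With sites in 3 of 3 libraries the GR shares were 40% of targets and 5% of housekeeping genes. Per1, a clock gene with a known GRE, had 9 GR and 13 NFIA sites, and at the intronic GRE printed above the folds were 15.5, 7.55 and 26.4 for GR and 51.4, 38.7 and 27.3 for NFIA. At Hif3a, chr7:17058085-17058711, they were 18.1, 6.40 and 37.3 for GR and 33.4, 44.3 and 32.2 for NFIA. The metallothionein genes Mt1 and Mt2 shared a best region at chr8:94154276-94155072 with 21.9, 7.97 and 25.8 for GR and 14.4, 20.2 and 15.5 for NFIA, in which the proteins overlapped. GR folds at these 3 loci were lowest in replicate 2.

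Other textbook targets had few GR sites, or none. Fkbp5, a chaperone in the feedback on GR, had 1 GR site, called in replicates 2 and 3 with folds of 7.25 and 4.50, and 2 NFIA sites. Tsc22d3, which encodes GILZ, had 2 GR sites, neither called in replicate 2, and 4 NFIA sites, and its best shared region had GR folds of 9.81 and 11.5 and NFIA folds of 8.84, 13.7 and 8.75. Dusp1, Tnfaip3 and Zbtb16 had an NFIA site and no GR site, although Dusp1 had 4 peaks in GR replicate 3 alone, and Arid5b and Sgk1 had neither.

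Genes of the partner proteins were themselves near sites. All 10 corticosteroid receptor and chaperone genes had sites of both proteins, 4 with a GR site in 3 of 3 libraries (Hspa8, Nr3c2, Ptges3 and Stip1). Nr3c1 had 2 GR and 5 NFIA sites, of which 0 lay within 10 kb of its start, and Nr3c2, the mineralocorticoid receptor gene, 1 and 1. The Nr3c2 site was called in all 6 libraries with low folds, 2.39, 2.48 and 2.89 for GR and 4.07, 2.41 and 3.20 for NFIA. Of the NFI family, Nfia had 6 GR and 12 NFIA sites, Nfib 1 and 2, Nfic 4 and 13, and Nfix 15 and 15.

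Of 20 glial fate genes 19 had a GR site and 20 an NFIA site, and 10 had a GR site in 3 of 3 libraries, including Sox9, Id3, Lhx2, Nfia and Nfix. Sox10, a factor of the oligodendrocyte lineage, had NFIA only. Id3 had 8 and 12 sites, Sox9 3 and 5, and Lhx2 4 and 3. At the intronic region near Lhx2, chr2:38366202-38366563, GR folds of 10.0, 9.89 and 11.7 lay close to NFIA folds of 15.2, 11.5 and 8.31. Cables1 had 1 and 6 sites.

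Clock genes, immediate early genes and synapse organisers each had 3 members with an NFIA site alone, near the 15% of all genes. Of 18 clock genes 15 had GR and 18 NFIA, with Cry1, Nfil3 and Npas2 in NFIA alone. An intronic region near Rora, a nuclear receptor of the clock, had GR folds of 25.7, 8.98 and 21.6 and NFIA folds of 20.4, 23.8 and 14.1. Of 19 immediate early genes 16 and 19 had a site, with Egr2, Npas4 and Nr4a2 in NFIA alone, and 4 had a GR site in 3 of 3 libraries. Of 15 secreted or surface organisers of synapses 10 had GR and 13 NFIA. Thbs1, Gpc4 and Gpc6 had NFIA alone, and Chrdl1 and Thbs2 had neither.

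At Ncan, a proteoglycan of the brain matrix, the region chr8:70128485-70128833 had GR folds of 26.7, 9.08 and 26.3 and NFIA folds of 86.9, 65.3 and 44.1. Every NFIA fold was above every GR fold there, on scales that differ between libraries. Mertk, a phagocytic receptor, had 19.2, 5.27 and 28.6 for GR and 27.6, 30.2 and 18 for NFIA, where the groups overlapped.

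Markers of neurons, microglia and vessels had sites less often than the 50.4% (GR) and 65.1% (NFIA) of all protein-coding genes, and oligodendrocyte lineage markers lay near those shares. Of 15 excitatory neuron markers 4 had a GR site and 7 an NFIA site, of 17 inhibitory neuron markers 4 and 5, of 13 microglia markers 4 and 7, of 16 endothelial and mural markers 5 and 7, and of 18 oligodendrocyte lineage markers 8 and 11. GR sites in 3 of 3 libraries were near 0, 1, 0, 1 and 2 of them, the last being Olig1 and Olig2. The site of Slc17a7, an excitatory marker, lies 9656 bp from its start in a region that the window of the housekeeping gene Rpl13a also reaches. A larger share of astrocyte genes had sites of both proteins than of any of these marker lists. This is not an independent check of the labelled cell type. The lists were chosen with earlier results of these data known, and 95% of housekeeping genes also had a site of each protein.

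Within 50 kb, housekeeping genes had sites of both proteins about as often as astrocyte genes, but seldom a GR site called in every library. Of 20, 19 had a GR site and 19 an NFIA site, with Hprt in GR alone and Gusb in NFIA alone. With sites of 3 of 3 libraries, 1 kept GR and 19 kept NFIA, against 25 and 40 of 40 astrocyte genes. A GR site called in 3 of 3 libraries needs a peak in the shallow replicate 2. Within 10 kb, with sites of at least 2 libraries, 14 and 17 of 20 housekeeping genes had a GR and an NFIA site, against 36 and 39 of 40 astrocyte genes and 30.3 and 45.7% of all genes.

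**Figure D5:**
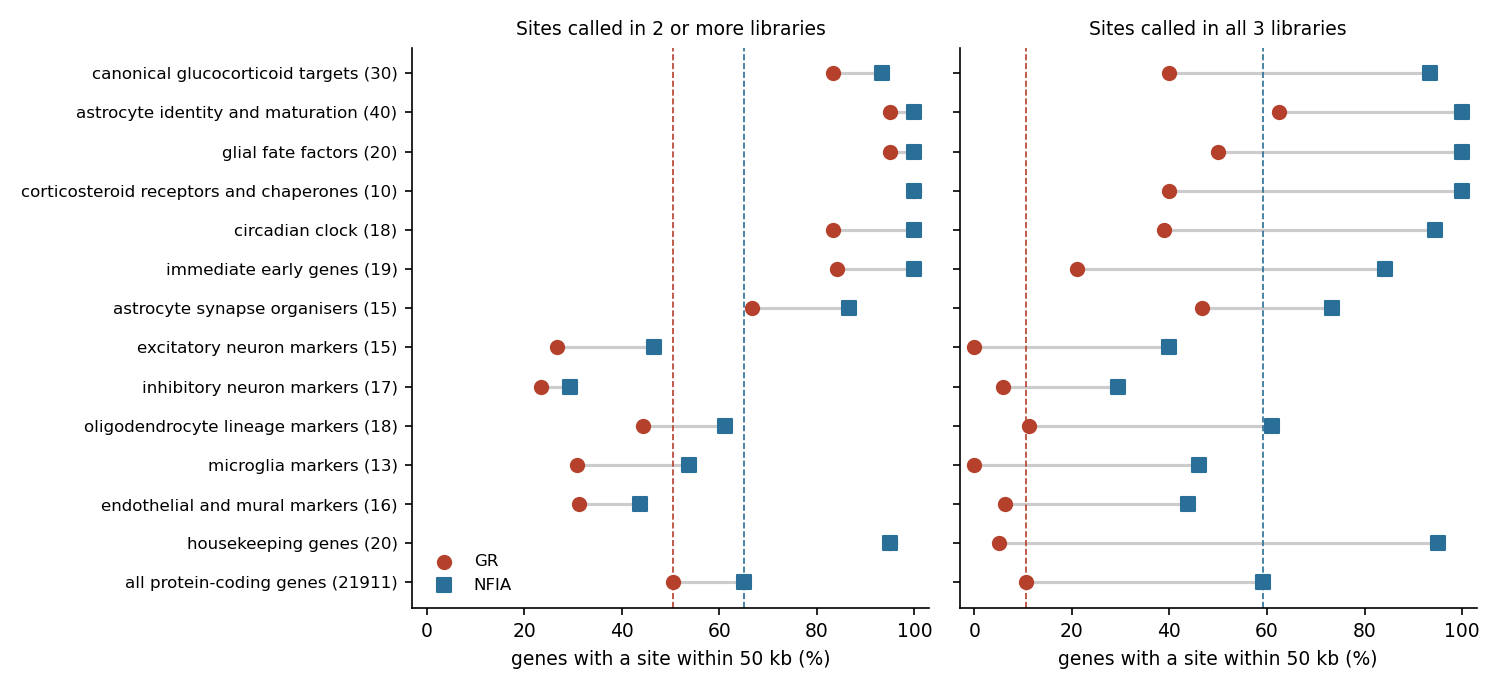
Share of the genes of each list (number of genes in brackets) with a site of GR (red circles) or NFIA (blue squares) within 50 kb of the start, in %, for sites in 2 or more libraries (left) and in all 3 (right); dashed lines are all protein-coding genes, 50.4 and 65.1% on the left and 10.6 and 59.1% on the right. On the right 25 of 40 astrocyte genes and 1 of 20 housekeeping genes kept a GR site.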

How the data were processed

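CUT&RUN was measured in 6 libraries of NR V1 astrocytes, 3 for GR and 3 for NFIA, grouped by the labels. Per the study's methods, adapters were removed with cutadapt and reads mapped by the authors with Bowtie2 on mm10. Picard (duplicates), SAMtools (mapping quality) and deepTools (fragments up to 120 bp) were then applied, and MACS2 called peaks per library against IgG. The IgG library behind each call was not stated in those methods. The deposited lists give positions, a fold enrichment over local background (a ratio) and a −log10 p and −log10 q per peak. The authors' values were used to rank or filter peaks, and background and summit fragments were solved from them.

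Peaks overlapping by 1 bp were merged, and a site needed peaks in at least 2 libraries of a protein. Motifs were searched on both strands within 50 bp of summits and in equal windows 1 kb to either side, and within 100 bp of summits for motif distances. Sites were annotated with GENCODE M21 (GRCm38.p6, which is mm10), with promoters within 500 bp of any annotated start, and named by the nearest protein-coding start. Gene lists used 50 kb. Libraries were the unit of two-sided exact permutation tests with a threshold of 0.05, which 3 against 3 cannot reach (smallest p = 0.1). Benjamini-Hochberg adjustment covered 11 motifs. P-values reflect the spread between these samples alone, which may be partly technical. Named sites were the 10 best-ranked of each class, the 6 with the largest rank gap in each direction among regions of all 6 libraries without overlapping ranks, the 4 best-ranked genes of each list and a set of fixed genes; of these the text describes a part, and some items are not reported here. Members and lists were chosen with earlier results of these data known. Alternatives were another promoter and gene window, a stricter q of 0.001, equal numbers of best peaks, other overlap rules, distal or promoter peaks alone, each library left out and a replicate block. Calculations used Python 3.11.15, numpy 2.4.6, pandas 2.3.3, SciPy 1.17.1 and pysam 0.24.0, and were tested on simulated data. Replicate numbers were not taken as pairs in the main tests, and whether same-numbered libraries shared mice was not established.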

Additional observations from a re-analysis of the deposited data

How the results depend on the processing

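With 3 libraries a protein no test could pass the threshold, so stability refers to direction and size. Leaving out 1 library at a time gave a log2 difference in peaks of 0.520 to 2.15, a width difference of −3.5 to 21 bp, a promoter difference of −4.76 to 2.43 percentage points and a summit-distance excess of −2.13 to 6.29 bp. The promoter difference was 1.19 with promoters of 2000 bp and 0.282 at a q of at most 0.001. Motif differences (NFIA minus GR, percentage points) ranged without 1 library from −0.233 to 0.0315 for AP-1, −0.111 to 0.202 for CREB, −0.343 to 1.195 for ETS and −2.41 to 2.67 for SP/KLF. With equal numbers of best peaks they were −0.0295 for CTCF, −0.133 for CREB and −3.12 for SP/KLF, and CREB was −0.0361 at distal peaks. The directions for NFI half-site, full NFI site, full GRE and E-box did not turn under the alternatives run. The NFI half-site and full GRE shares nevertheless overlapped between proteins within 100 bp of summits. The cause of each change was not tested.

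The share of GR sites with NFIA was 89.7 to 97.8% without 1 library, 87.6% with summits within 100 bp and 49.9% with equal numbers of best peaks. The share of NFIA sites with GR was 7.63 to 60.05% without 1 library, 10.0% for sites in all 3 libraries and 40.5% with equal numbers of best peaks.

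Genes with a GR site in all 3 libraries numbered 12 for glucocorticoid targets, 25 for astrocyte identity, 10 for glial fate, 4 for receptors and chaperones, 7 for the clock, 4 for immediate early genes, 0 and 1 for excitatory and inhibitory neurons, 2 for oligodendrocytes, 0 for microglia, 1 for endothelial and mural cells and 1 for housekeeping. Without 1 library these counts were 12 to 25, 24 to 38, 10 to 19, 4 to 10, 7 to 15, 4 to 16, 0 to 4, 1 to 4, 2 to 8, 0 to 4, 1 to 5 and 1 to 19. Within 10 kb, GR and NFIA counts were 4 and 6 of 15 excitatory and 2 and 3 of 17 inhibitory neuron markers. They were 3 and 4 of 18 oligodendrocyte, 1 and 2 of 13 microglia and 1 and 3 of 16 endothelial and mural markers. Of all protein-coding genes 30.3 and 45.7% had such a site. Excitatory markers (26.7 and 40%) lay near those shares and oligodendrocyte markers (16.7 and 22.2%) lay below them, unlike within 50 kb.

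The replicate block gave a difference of 1.50 in log2 peaks with p = 0.25, the smallest an exact sign-flip permutation allows here, and p = 1 for width and promoter share, and changed no call. Deviations of same-numbered libraries correlated at −0.000483, 0.00582 and −0.0179, and those of other pairs at −0.0224 to 0.0224. The replicate numbers thus gave no sign of pairing, but such values cannot show whether libraries shared mice. Summit distances in regions of all 6 libraries, at distal and at promoter peaks were added after seeing the data. Depth limits every statement that GR is missing: a site without a GR peak is one not called at this depth.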
